A study of Homo sapiens with 9 samples.

Results

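The 42 genes described here encode proteins of the nucleolar ribosome biogenesis machinery. They were taken by gene name from a list drawn up with earlier results of these data known, so their counts and medians beside those of all genes are descriptions. Each name occurred once among the 58735 genes of the deposited count files, and all 42 were among the 18319 genes that passed the filter on low counts. The measurements come from sequenced poly(A)-selected RNA of HEK293T, an established human line from embryonic kidney that the labels class as epithelial. In these cells PRPS1 carries an HA-dTAG and PRPSAP1 carries a V5-BromoTag, and both tags were present in every group, DMSO controls included. PRPS1 is a phosphoribosyl pyrophosphate synthetase, which makes the activated ribose that nucleotide synthesis starts from, and PRPSAP1 is a protein associated with that enzyme. One group received DMSO alone, another dTAG47, which depletes the tagged PRPS1, and the last AGB1, which depletes the tagged PRPSAP1; each depleting compound was given at 500 nM for 24 h, and there were 3 libraries per group. Whether the tagged line is 1 clone, and whether the libraries of a group are separate cultures, is not given in the labels. The p-values therefore cover the spread between these libraries and no more, and that spread may be technical.

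Ribosomes are assembled in the nucleolus, where RNA polymerase I transcribes the long precursor of the 18S, 5.8S and 28S ribosomal RNAs. Box C/D small nucleolar ribonucleoproteins methylate that precursor and box H/ACA particles convert chosen uridines to pseudouridine. The small-subunit processome then folds and cleaves the part that becomes the small subunit, while a separate set of factors assembles the large subunit. The pathway consumes much of a growing cell's nucleotides, and many of its genes are textbook targets of the transcription factor MYC, which binds with MAX to the E-box CACGTG. By role the list holds 3 proteins of box C/D particles, 4 of box H/ACA particles, 3 of RNA polymerase I and its initiation, 15 of the small-subunit processome, 12 of large-subunit assembly and 5 nucleolar proteins with several roles.

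The E-box was counted in promoter windows from 250 bases before to 50 bases after each RefSeq gene start on GRCh38.p14. CACGTG reads the same on both strands, so 1 search covers both. Windows were found for 37 of the 42 genes, and BOP1, NOLC1, NOP58, RRP12 and RRS1 had no entry. Of those 37 genes, 17 (45.9%) held at least 1 CACGTG, against 8.77% of the 27305 genes with a window and 12.4% of the 11616 that were also tested for expression. The motif was also placed close to the start: 17 of its 18 occurrences (94.4%) began within 40 bases of it. Over all genes 775 of 2697 (28.7%) did so, and over the tested genes 491 of 1668 (29.4%). The 40-base limit was not a planned setting, and the farthest of the members' near sites, in NOP2, began at position 35. The contrast is therefore a description. The 17 genes were DDX21, FBL, GAR1, GNL2, GNL3, MYBBP1A, NAT10, NOL6, NOP10, NOP14, NOP2, PES1, PWP2, RRP9, UTP20, UTP4 and WDR43. The stretches below, with the motif in capitals, are the 6 in which the motif begins just upstream of the start, and they show that the flanks of the shared core differ. In the order printed, the first base of the motif lies 31, 15, 11, 5, 10 and 16 bases before the start, in the windows chr10:68956604-68956633 (plus strand), chr11:34105602-34105631 (plus), chr15:34343130-34343159 (minus), chr3:51941892-51941921 (minus), chr12:101280083-101280112 (plus) and chr16:69132621-69132650 (plus). A match describes these letters and does not show that a factor is bound.
DDX21: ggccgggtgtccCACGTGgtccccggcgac
NAT10: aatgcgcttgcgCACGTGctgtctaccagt
NOP10: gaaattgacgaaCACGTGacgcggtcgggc
RRP9: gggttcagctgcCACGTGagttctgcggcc
UTP20: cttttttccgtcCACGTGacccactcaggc
UTP4: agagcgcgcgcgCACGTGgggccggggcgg

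Total counts ran from 27964128 to 44803380 per library, and mitochondrial genes took 1.91% to 2.33% of them. Of 7 genes listed to check the epithelial label 6 reached 1 CPM (counts scaled to a common library total) in every library, with a summed level of 505.5 to 551.8 CPM in DMSO, 491.6 to 538.5 in dTAG47 and 490.5 to 522.7 in AGB1. Most of that sum was VIM (338 to 380.0 CPM) and CDH2 (65.2 to 80.1), which are better known from mesenchymal cells. The epithelial keratins KRT18 (41.8 to 60.1 CPM) and KRT8 (25.8 to 35.3) were present, while CDH1 (6.25 to 9.02) and EPCAM (1.11 to 3.21) were low and KRT19 reached at most 0.0971 CPM. Of 5 fibroblast markers COL1A1 alone reached 1 CPM in every library, at 22.7 to 32.3 CPM. The blood markers PTPRC and HBB reached at most 0.0324 and 0.0223 CPM. PRPS1 messenger RNA measured 0.09 (SE 0.06, log2 fold change) above DMSO with dTAG47 and 0.08 (SE 0.06) with AGB1, and PRPSAP1 measured 0.01 (SE 0.12) and -0.02 (SE 0.12); no call was made for either. Because the compounds act on the tagged proteins, these messenger RNA values do not check the depletion. Across all genes, counts followed the GC content of the transcript differently from library to library, with the strongest rank correlation in dTAG47 1. The values for the 42 genes are given with their results below.

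In DMSO the 42 transcripts spanned a wide range of levels per length, with a median of 28.5 RPKM (CPM divided by the exon length in kilobases). The highest was NPM1, nucleophosmin, at 663 ± 15.5 RPKM (SD, n = 3), followed by NCL, nucleolin, at 289 ± 1.67 and by NOLC1, a chaperone of small nucleolar particles also called Nopp140, at 145.0 ± 2.36. These 3 and the next, the nucleolar RNA helicase DDX21, belong to the proteins with several roles. NOP10 at 128.0 and FBL at 127 RPKM led the modification particles, GNL3 at 101 RPKM led large-subunit assembly and NOP14 at 56.3 RPKM led the small-subunit processome. The polymerase I genes lay lower, between POLR1A at 16.3 and RRN3 at 28.4 RPKM. The bottom of the order was PWP2 at 3.79 ± 0.611, PPAN at 3.54 ± 0.844 and NOP2 at 0.191 ± 0.0322 RPKM. Of the 41 pairs of neighbours in this order, 27 overlapped in the range of their DMSO libraries. Against the spread between libraries the order is therefore firm at the top, where NPM1, NCL, NOLC1 and DDX21 did not overlap. It is loose through most of the middle. The order also depends on the length used, here all exonic bases of a gene. FBL has 2173 exonic bases against 1400 in its longest transcript, and NOLC1 3970 against 3967. Another choice of length could therefore change places, also near the top.

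**Figure D1:**
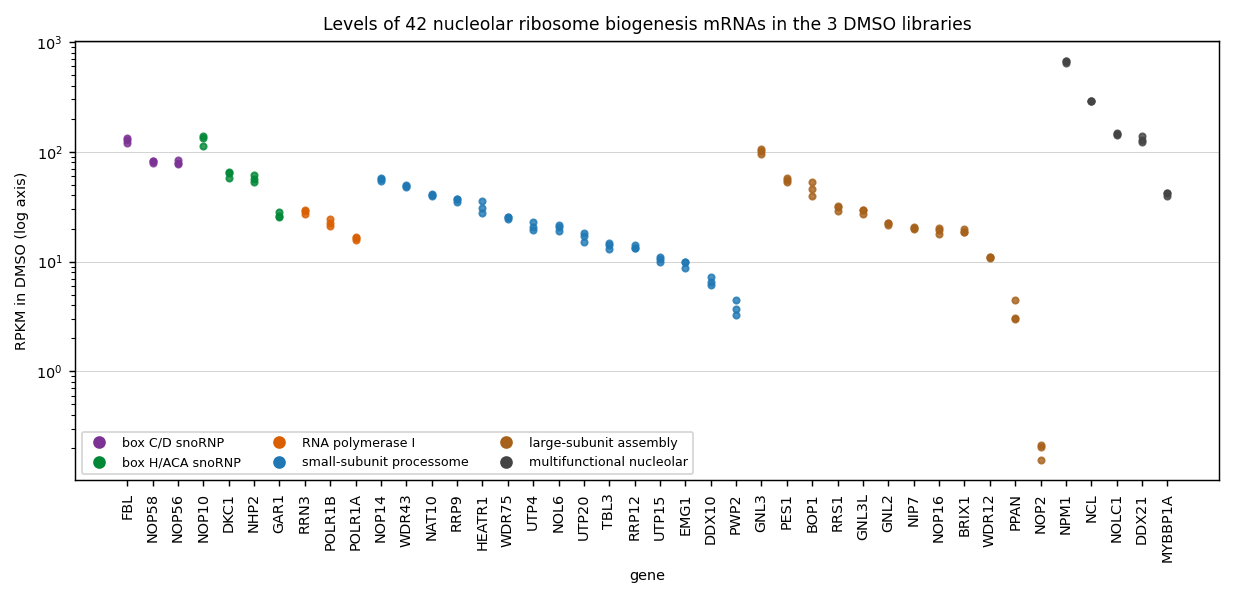
RPKM (log axis) of the 42 genes in the 3 DMSO libraries, 1 point per library, coloured by role and ordered by mean within each role. NPM1 at 663 RPKM and NCL at 289 RPKM stand at the top, and PWP2, PPAN and NOP2 at the bottom.

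The low values of those last 3 genes stand beside the sequence they share with other genes. NOP2, a methyltransferase of 28S ribosomal RNA, overlaps the same-strand gene AC006064.6 over 54.4% of its exonic bases, and 83.2% of the 75-base words of its longest transcript also occur in other genes. PPAN, a large-subunit assembly factor, overlaps the read-through gene PPAN-P2RY11 over 59.8% of its exonic bases and shares 86.8% of its words. Both overlapping genes were listed at 0 counts in all 9 libraries, while NOP2 had 18 to 49 counts and PPAN 250 to 491. PWP2, of the UtpB module, shares 90% of its words with its copy FP565260.1, which drew 880 to 1640 counts against 727 to 989 for PWP2. How the authors' counting treated reads that fit 2 genes is not given in the sources used here, so the levels of these 3 genes are uncertain and cannot be ranked against the rest. Smaller shares were found for NPM1 (29.8% of words) and RRN3 (22.8%). EMG1 (49.5%), TBL3 (29.9%), NHP2 (27.4%), HEATR1 (23.2%), NIP7 (20.2%) and NOP16 (20%) overlap exons of a gene on the opposite strand, and the strand setting of the counting is likewise not given.

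The first comparison sets dTAG47, given to deplete PRPS1, against DMSO, and the second sets AGB1, given to deplete PRPSAP1, against it. Each depletion came with its own compound, and every library came from the tagged line. Effects of a compound and of the loss of its target therefore cannot be told apart. With dTAG47 the 42 messenger RNAs stayed close to their DMSO levels: 24 of 42 log2 fold changes were positive (57.1%, against 49.7% of all tested genes and 54.1% of the 8297 genes at 20 CPM or more), and their median was 0.0153 (all genes -0.000974). That median turned negative without DMSO 3 (-0.0100) or without dTAG47 2 (-0.00635). With AGB1 the values leaned upwards by a few percent: 32 of 42 were positive (76.2%, against 49.7% of all tested genes and 54.0% of those at 20 CPM or more), with a median of 0.0513 (all genes -0.000924). No single member passed the test in either comparison. The values are relative to the total of each library, so a rise or fall common to all RNA of the cells would not show. The RNA of many cells was pooled, so a shift per cell and one in the number of expressing cells cannot be told apart. The edgeR quasi-likelihood test with Benjamini-Hochberg adjustment over all genes called 11 genes (0.06%) with dTAG47 and 19 genes (0.104%) with AGB1 at an adjusted p under 0.05, and 0 of the 42 in each. By direction the shares over all genes were 0.0328% above and 0.0273% below DMSO with dTAG47, and 0.0546% above and 0.0491% below it with AGB1. DESeq2 called 47 and 81 genes, limma-voom 10 and 16, and both tools called 0 members. At an unadjusted p under 0.05 there were 2 members with dTAG47, POLR1A above DMSO and GNL3 below it (2.38% each, against 3.65% and 3.62% of all genes), and 5 with AGB1, all above DMSO (11.9%, against 3.55% of all genes above and 4.21% below): NOP56, POLR1A, UTP20, NPM1 and NOLC1. The 2 comparisons share the 3 DMSO libraries, so their values are not independent of each other.

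The precision of these estimates was high for most members. The median standard error of a member's log2 fold change was 0.0635 with dTAG47 and 0.0636 with AGB1, against 0.130 and 0.131 over all genes, and the median biological coefficient of variation was 5.61%, against 6.57% for genes at 20 CPM or more. The 95% interval lay inside a 1.2-fold change in either direction for 37 of 42 members with dTAG47, the others being UTP15, PWP2, NOP2, NOP16 and PPAN, and for 38 with AGB1, the others being PWP2, UTP20, NOP2 and PPAN. At 1.5-fold, NOP2 alone lay outside in both. At 1.1-fold, 8 intervals lay inside with dTAG47 and 1 with AGB1, so differences of that size were not resolved for most of the genes.

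**Figure D2:**
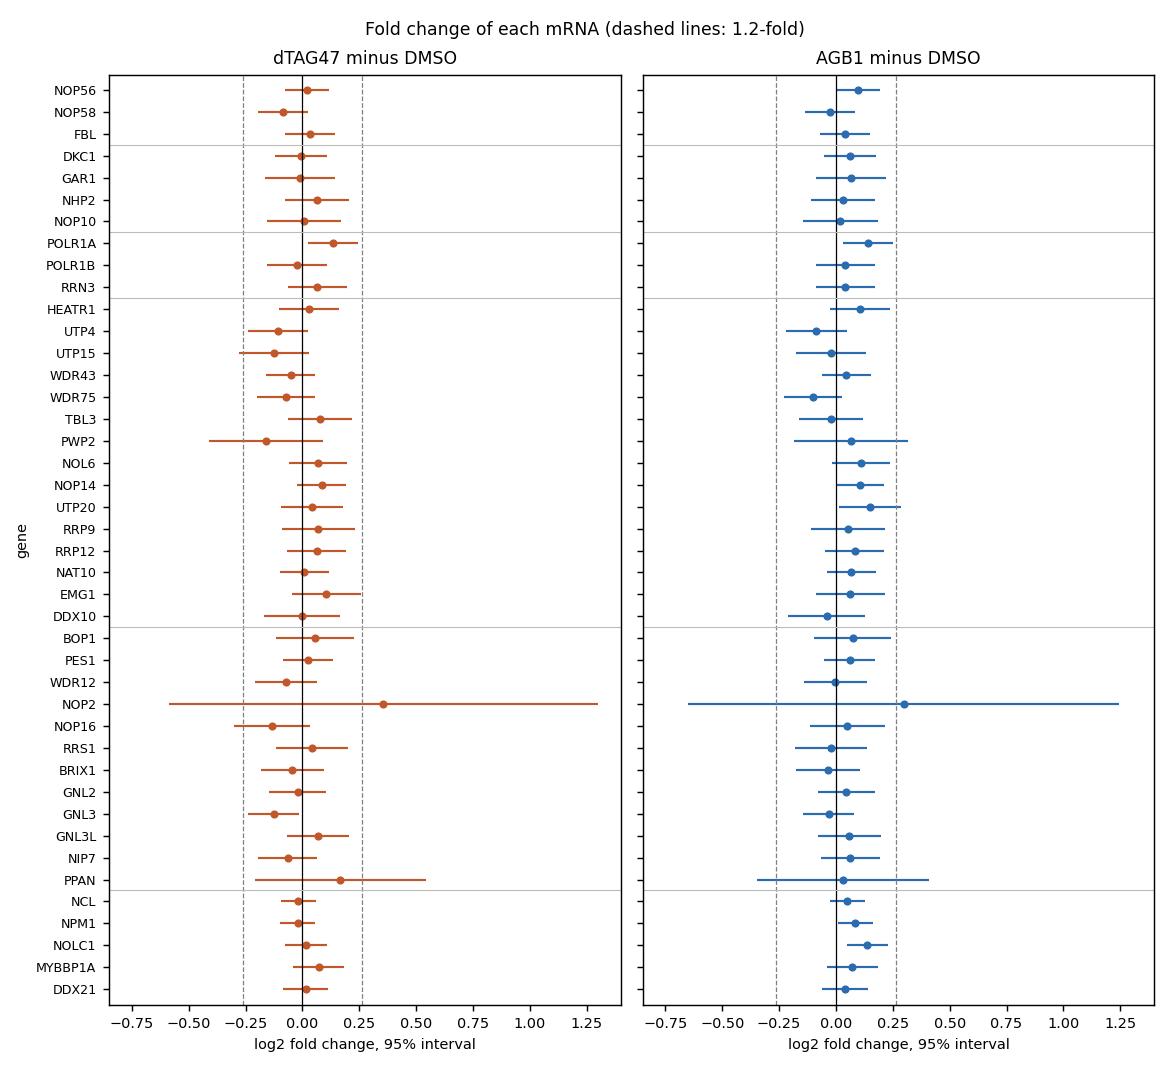
Log2 fold change of each gene (points) with its 95% interval (lines) for dTAG47 (left) and AGB1 (right) against DMSO, with 1.2-fold marked by dashed lines and role groups parted by grey lines. In the dTAG47 panel 37 of 42 intervals lie between the dashed lines, and in the AGB1 panel 38, with NOP2 the widest in both.

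Summed over the 42 genes, the members took 1.126% ± 0.00557 of all counts in DMSO (SD, n = 3), 1.122% ± 0.0196 in dTAG47 and 1.166% ± 0.0115 in AGB1. The AGB1 libraries, at 1.157% to 1.179%, lay above every DMSO library (1.12% to 1.131%) and every dTAG47 library (1.103% to 1.142%). NPM1 and NCL weigh most in this sum. In a count that weighs genes equally the AGB1 libraries also lay above the rest: 35, 27 and 28 of the 42 genes were above their own mean over all libraries in AGB1 1 to 3, against 16 to 20 in each of the other 6 libraries. The matching share over all genes was not computed. How far this count is particular to the 42 genes is therefore not known. AGB1 1 held the highest median deviation of the 9, at 0.0507 on the log2 scale, and AGB1 2 and AGB1 3 held 0.0104 and 0.0272. No test was made of these sums, since the genes were listed with earlier results of these data known.

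**Figure D3:**
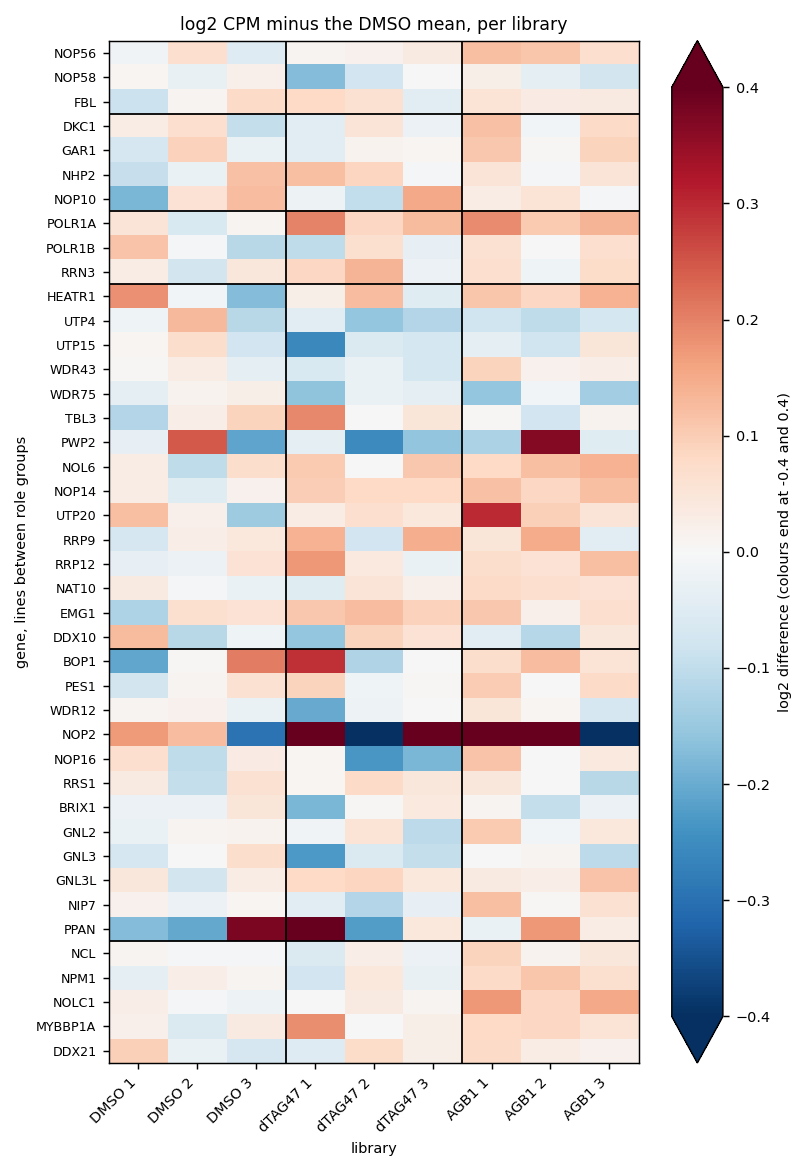
Log2 CPM of each gene minus its DMSO mean in the 9 libraries, red above and blue below, with colours ending at 0.4 and lines between role groups and between treatments. The AGB1 columns are redder than the rest, with 35, 27 and 28 genes above their 9-library mean, and NOP2, PPAN and PWP2 vary most. The matching share over all genes was not computed.

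Among the box C/D proteins, FBL, the fibrillarin methyltransferase, measured 259, 277 and 290.0 CPM in the DMSO replicates in order, 290.4, 287 and 267 with dTAG47 and 286, 281 and 282 with AGB1. The ranges overlapped, and the log2 fold changes were 0.03 (SE 0.05) with dTAG47 and 0.04 (SE 0.05) with AGB1. The core protein NOP56 measured 425, 449.6 and 414 CPM in DMSO and 467, 463.5 and 449.6 with AGB1. The DMSO 2 and AGB1 3 libraries met at the edge of the 2 groups, and the log2 fold change was 0.10 (SE 0.05, edgeR adjusted p = 0.634). NOP58, its partner in the particle, went the other way at -0.08 (SE 0.05) with dTAG47 and -0.03 (SE 0.05) with AGB1.

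All 4 box H/ACA genes had positive values with AGB1, from 0.02 for NOP10 to 0.07 for GAR1, and 2 of 4 with dTAG47. DKC1, the pseudouridine synthase dyskerin, measured 267, 273 and 244.5 CPM in DMSO, 253, 271 and 257 with dTAG47 and 283, 259 and 276 with AGB1. Its log2 fold changes were -0.01 (SE 0.06) and 0.06 (SE 0.06), and no 2 groups were apart.

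Of the RNA polymerase I genes, POLR1A, the largest subunit, measured 228, 211 and 222 CPM in DMSO, 253, 233.5 and 240.5 with dTAG47 and 251, 237 and 242 with AGB1. Every library of either compound lay above every DMSO library. The log2 fold changes were 0.13 (SE 0.05, edgeR adjusted p = 0.586) with dTAG47 and 0.14 (SE 0.05, adjusted p = 0.477) with AGB1. Neither passed the threshold after adjustment over all genes. Both estimates rest on the same DMSO libraries. POLR1B, the second-largest subunit, measured -0.02 (SE 0.06) and 0.04 (SE 0.06), and RRN3, which recruits the polymerase to its promoter, 0.07 (SE 0.06) and 0.04 (SE 0.06).

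In the small-subunit processome 9 of 15 values were positive with dTAG47 and 10 of 15 with AGB1, with medians of 0.0280 and 0.0630. UTP20, a scaffold of 18S maturation, measured 183, 171 and 153 CPM in DMSO, 172, 177 and 174 with dTAG47 and 207, 179.9 and 175 with AGB1. The AGB1 value, 0.15 (SE 0.07, edgeR adjusted p = 0.588), was the highest of the processome, and AGB1 1 alone lay clear of DMSO: without that library it was 0.07. WDR75, of the UtpA module that joins the precursor during transcription, measured 123, 128 and 129 CPM in DMSO, 113, 124 and 124 with dTAG47 and 114, 126 and 115 with AGB1. Its log2 fold changes were -0.07 (SE 0.06) and -0.10 (SE 0.06), the latter the lowest of the 42 with AGB1 in this fit. With the GC trend of each library removed WDR75 measured -0.06 with AGB1 and UTP4 -0.09, so that WDR75 was no longer the lowest. UTP4, of the same module, measured 117, 129 and 109 CPM in DMSO, 115, 106 and 109 with dTAG47 and 112, 110.2 and 113 with AGB1. Its values were -0.11 (SE 0.07) and -0.09 (SE 0.07). The AGB1 libraries of UTP4 lay inside the DMSO range, while dTAG47 2 (106.2 CPM) and dTAG47 3 (108.9) lay just below DMSO 3 (109.3). With dTAG47, 4 of the 5 UtpA genes (UTP4, UTP15, WDR43 and WDR75) were below DMSO and HEATR1 was 0.03 (SE 0.06) above it. All of these but UTP4 have a transcript GC content under 45%. In that class 4 of 15 members, and 34.8% of all genes at 20 CPM or more, were above DMSO with dTAG47. The count for this module was not planned and is not a result about UtpA.

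The helicase DDX10 measured 62.0, 52.6 and 56.2 CPM in DMSO, 51.0, 60.4 and 59.2 with dTAG47 and 54.99, 52.5 and 58.6 with AGB1, and its log2 fold changes were -0.00129 (SE 0.08) and -0.04 (SE 0.08). TBL3, of the UtpB module, measured 92.3, 101.9 and 106.5 CPM in DMSO, 114, 99.9 and 103 with dTAG47 and 100.4, 94.8 and 101.0 with AGB1. Its values were 0.08 (SE 0.07) and -0.02 (SE 0.07), and dTAG47 1 alone lay above DMSO. PWP2, of the same module, measured 25.4, 30.8 and 22.5 CPM in DMSO, 25.3, 21.8 and 23.3 with dTAG47 and 23.9, 33.5 and 25.2 with AGB1. Its log2 fold change of -0.16 (SE 0.12) with dTAG47 was 0.01 (SE 0.08) once the counts of its copy FP565260.1 were added, and the AGB1 value moved from 0.07 (SE 0.12) to 0.13 (SE 0.08). NOP14, which acts in 18S maturation, did not overlap DMSO with either compound, at 192.6 to 203 CPM in DMSO, 210.2 to 213 with dTAG47 and 210.6 to 216 with AGB1. Its log2 fold changes were 0.09 (SE 0.05) and 0.11 (SE 0.05), with edgeR adjusted p of 0.768 and 0.646.

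In large-subunit assembly 6 of 12 values were positive with dTAG47 and 8 of 12 with AGB1. GNL3, the GTPase nucleostemin, measured 319.7, 335 and 352 CPM in DMSO, 286, 322 and 313.5 with dTAG47 and 335, 338 and 312 with AGB1. The dTAG47 value was -0.13 (SE 0.05, edgeR adjusted p = 0.628), and DMSO 1 lay below dTAG47 2, so the groups overlapped. NOP16 measured 57.3, 50.9 and 56.0 CPM in DMSO, 54.98, 46.6 and 48.2 with dTAG47 and 59.1, 54.7 and 56.1 with AGB1, with log2 fold changes of -0.13 (SE 0.08) and 0.05 (SE 0.08). NIP7, a processing factor of the precursor, measured 97.1, 94.4 and 96.5 CPM in DMSO, 93.3, 88.5 and 93.9 with dTAG47 and 104, 96.2 and 100.2 with AGB1. The dTAG47 libraries of NIP7 lay just below DMSO, at -0.06 (SE 0.06), and AGB1 at 0.06 (SE 0.06).

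The PeBoW complex, built from PES1, BOP1 and WDR12, gave 0.02, 0.06 and -0.07 with dTAG47 and 0.06, 0.07 and -0.00239 with AGB1. BOP1 had the widest DMSO spread of the 3, from 148 to 197 CPM. RRS1, which helps place the 5S particle, measured 53.6, 48.9 and 54.5 CPM in DMSO, 52.6, 55.1 and 53.9 with dTAG47 and 54.0, 52.3 and 48.5 with AGB1, or 0.04 (SE 0.08) and -0.02 (SE 0.08). PPAN measured 7.96, 7.79 and 11.7 CPM in DMSO, 14.0, 7.68 and 9.24 with dTAG47 and 8.81, 10.1 and 9.16 with AGB1. Its dTAG47 value of 0.17 (SE 0.18) was -0.12 without dTAG47 1. NOP2 measured 0.999, 0.966 and 0.723 CPM in DMSO, 1.39, 0.625 and 1.44 with dTAG47 and 1.22, 1.503 and 0.583 with AGB1. Its estimates of 0.36 (SE 0.46) and 0.30 (SE 0.46) have intervals that reach below and above 1.5-fold. Nothing could therefore be resolved for NOP2 from the 18 to 49 counts assigned to it per library.

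The 5 proteins with several roles were all positive with AGB1, from 0.04 for DDX21 to 0.14 for NOLC1, and 3 of 5 with dTAG47. NPM1, which shuttles ribosomal proteins and particles through the nucleolus, measured 2472, 2585 and 2560.0 CPM in DMSO, 2406, 2614 and 2489 with dTAG47 and 2680.0, 2743 and 2654 with AGB1. All 3 AGB1 libraries lay above the other 6. Its log2 fold change was 0.08 (SE 0.04, edgeR adjusted p = 0.571) with AGB1 and -0.02 (SE 0.04) with dTAG47. NCL, which binds the nascent precursor, measured 2016, 1995 and 1996 CPM in DMSO, 1925, 2038 and 1968 with dTAG47 and 2130.0, 2022 and 2068 with AGB1. Its values were 0.05 (SE 0.04) with AGB1, with the 2 groups just apart, and -0.02 (SE 0.04) with dTAG47.

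NOLC1 had the smallest adjusted p of the 42 with AGB1 and was among the 3 most abundant per length; it is described for that reason after its values were seen. It measured 586, 573 and 568 CPM in DMSO, 575, 590.5 and 579.9 with dTAG47 and 649.6, 610.1 and 639.6 with AGB1. The 3 AGB1 libraries lay above the other 6, while DMSO and dTAG47 overlapped. The log2 fold change was 0.14 (SE 0.04, edgeR adjusted p = 0.362) with AGB1 and 0.02 (SE 0.04) with dTAG47. Over the 16 other settings the AGB1 value of NOLC1 ran from 0.12 to 0.16 and its adjusted p from 0.123 to 0.767, so it was called in none. In all, the AGB1 libraries did not overlap DMSO and lay above it for 8 of 42 members (19.0%, against 6.56% of all genes), namely POLR1A, NOL6, NOP14, NAT10, NCL, NPM1, NOLC1 and MYBBP1A, and lay below it for 0 (against 6.75%). With dTAG47 there were 3 above (7.14%, against 5.8%), POLR1A, NOP14 and EMG1, and NIP7 alone below (2.38%, against 5.82%).

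**Figure D4:**
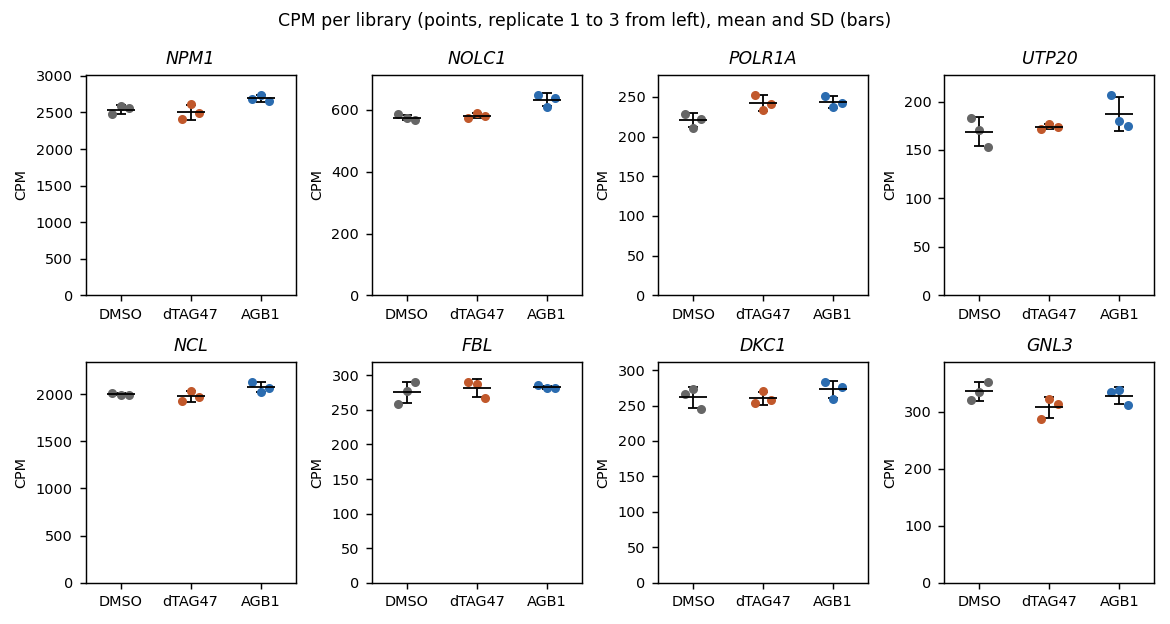
CPM per library of 8 members, with points in the order of replicate 1 to 3 and bars for the mean and SD of each group (n = 3); each axis starts at 0. NPM1 and NOLC1 lie higher in all 3 AGB1 libraries than in the other 6, and POLR1A lies higher in both compound groups than in DMSO.

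The third comparison sets the 2 compounds against each other. Values were lower with dTAG47 than with AGB1 for 31 of 42 members, leaving 11 positive (26.2%, against 50% of all genes), with a median of -0.0298. The edgeR test called 0 genes in all (0%), by DESeq2 and limma-voom 0 as well, and thus 0 members. At an unadjusted p under 0.05 edgeR had 3 members, NOP16, NPM1 and NOLC1, all lower with dTAG47 (7.14%, against 1.77% of all genes lower and 2.25% higher), and DESeq2 and limma-voom had 5 each. The libraries did not overlap for 6 members, all lower with dTAG47 (14.3%, against 5.1% of all genes lower and 5.35% higher): NOP56, WDR43, NAT10, NIP7, NPM1 and NOLC1. NPM1 measured -0.10 (SE 0.04), NOLC1 -0.12 (SE 0.04), NIP7 -0.13 (SE 0.06), NOP16 -0.18 (SE 0.08) and PWP2 -0.23 (SE 0.12), each with an edgeR adjusted p of 0.999. The highest values were 0.13 (SE 0.18) for PPAN, 0.10 (SE 0.07) for TBL3 and 0.06 (SE 0.08) for RRS1. FBL and POLR1A lay at -0.01 (SE 0.05) each, NCL at -0.07 (SE 0.04) and DKC1 at -0.07 (SE 0.06). For 38 of 42 members the 95% interval lay inside 1.2-fold, the others being PWP2, NOP2, NOP16 and PPAN.

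In several libraries the members' deviations followed the GC content of their transcripts. Across the 42 genes, Spearman's rho between GC content and the deviation from each gene's own 9-library mean was -0.602 in DMSO 1, -0.391 in DMSO 2 and 0.177 in DMSO 3. It was 0.842 in dTAG47 1, -0.476 in dTAG47 2 and -0.0249 in dTAG47 3, and -0.211, 0.269 and -0.0662 in AGB1 1 to 3. These are descriptions over 42 genes that share a library, its depth and its base composition, and genes are not independent replicates. The same trend ran over all genes at 5 CPM or more, with rho of -0.378 in DMSO 1 and 0.623 in dTAG47 1. In dTAG47 1 the 12 members over 55% GC, such as BOP1, MYBBP1A, PES1 and NOL6, had a median deviation of 0.112, and the 15 members under 45% GC, such as GNL3, WDR75, UTP15 and WDR12, one of -0.102. DMSO 1 was tilted the other way, with medians of -0.0915 and 0.0377.

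This tilt moved with the direction of the dTAG47 values. Of the members over 55% GC 11 of 12 were above DMSO with dTAG47, of those from 45% to 55% GC 9 of 15, and of those under 45% GC 4 of 15. All genes at 20 CPM or more showed the same order, with 76.2%, 60.8% and 34.8% above DMSO. With the GC trend of each library removed, 10 of 12, 8 of 15 and 6 of 15 members were above DMSO, and 56.3%, 54.4% and 51.0% of the genes at 20 CPM or more. With AGB1 the counts were 10 of 12, 14 of 15 and 8 of 15, and 10, 14 and 11 with the trend removed, so 35 of 42 members were above DMSO after removal, with a median of 0.0456. Among all genes at 20 CPM or more, 63.2%, 62.1% and 41.8% were above DMSO with AGB1, and 58.1%, 56.9% and 52.7% with the trend removed. Among single members, removal took the dTAG47 value of FBL from 0.03 to 0.00237 and that of NPM1 from -0.02 to -0.00765, and the AGB1 values of WDR75 from -0.10 to -0.06, of DDX10 from -0.04 to -0.02 and of FBL from 0.04 to 0.02. For dTAG47 minus AGB1 it took TBL3 from 0.10 to 0.06 and PPAN from 0.13 to 0.08. No member passed the test with the trend removed.

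**Figure D5:**
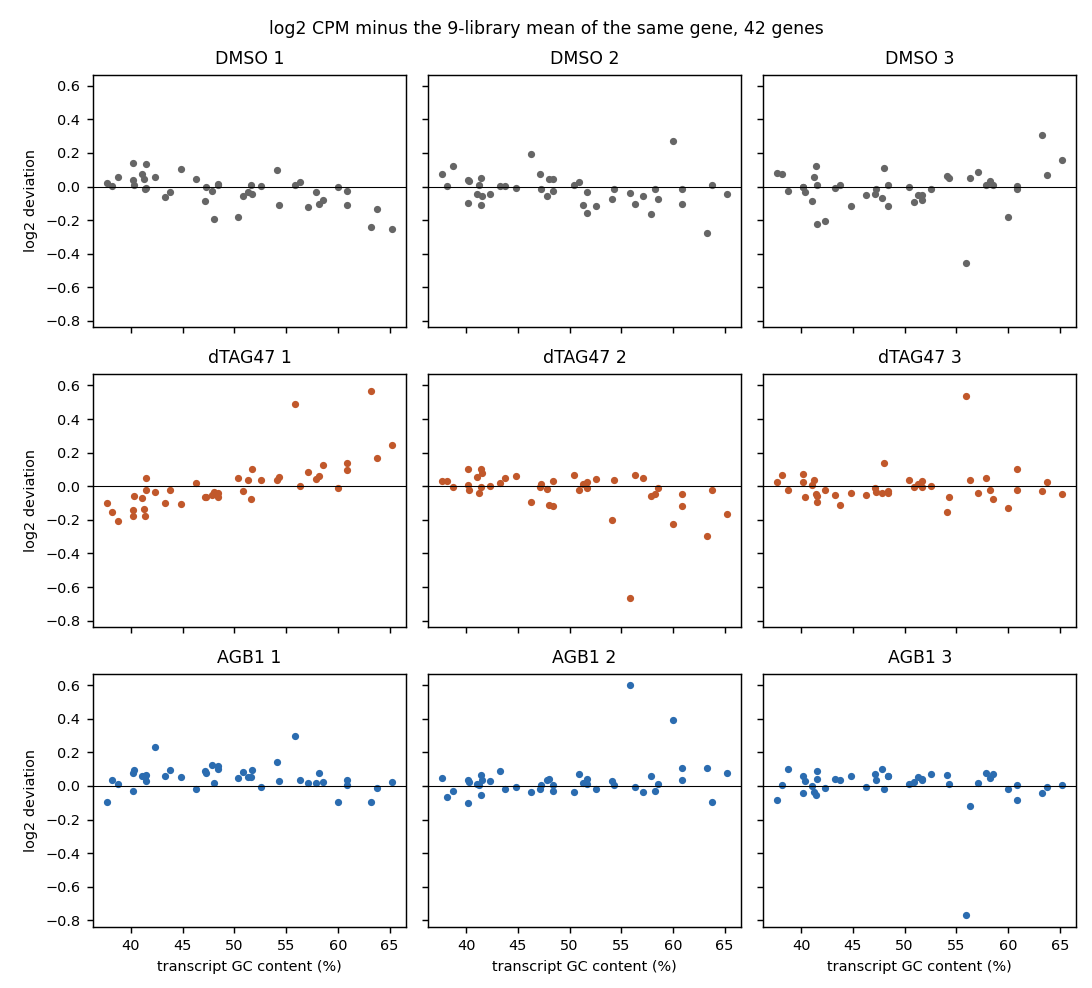
Log2 CPM of each of the 42 genes minus its 9-library mean (vertical axis) against the GC content of its transcript in percent (horizontal axis), 1 panel per library. The points climb from left to right in dTAG47 1 (rho 0.842), descend in DMSO 1 (rho -0.602), and show no clear slope in dTAG47 3 (rho -0.0249).

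Members with and without the E-box in their promoter window were then set side by side. With AGB1, 15 of the 17 genes with CACGTG and 14 of the 20 without it had positive values, with medians of 0.0594 and 0.0457. With dTAG47 there were 11 of 17 and 9 of 20, with medians of 0.0147 and -0.00374. The counts for dTAG47 minus AGB1 were 2 of 17 and 8 of 20, with medians of -0.0346 and -0.0364. The 2 sets were not matched for GC content, which went with the direction of the values above. They were not compared with the GC trend removed. MYC messenger RNA itself measured 142, 156 and 154.5 CPM in DMSO, 175, 156 and 163 with dTAG47 and 188, 177 and 189 with AGB1. It rose with AGB1, by 0.29 (SE 0.06, edgeR adjusted p = 0.0409), with all 3 AGB1 libraries above the other 6, and measured 0.13 (SE 0.06, adjusted p = 0.676) with dTAG47. The MYC call with AGB1 was kept in 9 of 16 other settings and lost in 7, over which the log2 fold change ran from 0.25 to 0.32 and the adjusted p from 0.00127 to 0.294. It was lost with library sizes alone (adjusted p = 0.0545), with the replicate number as a block (0.0785), and without DMSO 1 (0.138), DMSO 2 (0.129), AGB1 1 (0.294), AGB1 2 (0.0922) or AGB1 3 (0.281). Whether MYC and the members are linked here was not tested.

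The rest of the pathway was read from 4 further lists, all of whose genes were tested. No gene of these lists passed the test in any of the 3 comparisons by edgeR, DESeq2 or limma-voom, among 12 other RNA polymerase I genes, 32 other processome genes, 37 other large-subunit genes and 16 genes of late and cytoplasmic maturation. The edgeR counts at an unadjusted p under 0.05 were 1, 3, 2 and 1 with dTAG47, 1, 1, 2 and 2 with AGB1, and 0 in each list for dTAG47 minus AGB1. Over all tested genes 3.65% above and 3.62% below DMSO met that limit with dTAG47, and 3.55% above and 4.21% below it with AGB1. With AGB1 the positive values were 4 of 12, 20 of 32, 22 of 37 and 12 of 16, with medians of -0.0451, 0.0221, 0.0134 and 0.0484. With dTAG47 they were 6 of 12, 13 of 32, 20 of 37 and 8 of 16. PELP1, of the complex that remodels the large subunit with MDN1, measured 158, 147 and 159 CPM in DMSO and 186, 169 and 172 with dTAG47, or 0.18 (SE 0.06, edgeR adjusted p = 0.392). URB1, an early large-subunit factor, measured 166, 165 and 164 CPM in DMSO and 186, 181 and 182 with AGB1, or 0.15 (SE 0.05, adjusted p = 0.434). TAF1D, of the polymerase I selectivity factor, measured 73.6, 73.8 and 71.7 CPM in DMSO and 55.8, 62.6 and 72.1 with dTAG47, or -0.20 (SE 0.08, adjusted p = 0.613), and dTAG47 3 met the DMSO range. TTF1, the terminator of polymerase I transcription, lay at -0.15 (SE 0.09) with AGB1, and TWISTNB, a polymerase I subunit, at 0.12 (SE 0.07) for dTAG47 minus AGB1. TSR2, a chaperone of a small-subunit protein, measured 0.13 (SE 0.08) with dTAG47, and TSR3, an enzyme that modifies 18S ribosomal RNA, 0.14 (SE 0.08) with AGB1. For dTAG47 minus AGB1, the small-subunit factor LTV1 measured -0.13 (SE 0.08) and the large-subunit factor PAK1IP1 -0.12 (SE 0.09). The RNA helicase DDX47 had the largest value of the other processome genes in all 3 comparisons, from -0.49 (SE 0.42) to -0.20 (SE 0.43), at 0.682 to 2.36 CPM.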

How the data were processed

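RNA was column-purified, poly(A)-selected and copied with random hexamers, per the labels' protocols. The deposited values are unnormalized read counts for every gene, with gene length beside them per the file headers. HISAT2, DESeq2 and build hg38 are named in the submitters' processing notes. Their versions, how reads were counted and whether strand was used were not given in the sources used here. Gene models matched GENCODE 29 for 58735 of 58735 genes.

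Counts were analysed with edgeR 4.0.16 (R 4.3.3): filterByExpr by group, TMM scaling, and 1 quasi-likelihood model over all 9 libraries with no covariate. Benjamini-Hochberg adjustment covered 18319 genes, with a threshold of 0.05. CPM used TMM-scaled library sizes; RPKM also used the deposited gene length. Intervals are 95%. Alternatives were DESeq2 1.42.0, limma-voom (limma 3.58.1), other scalings and filters, only the 2 groups compared, a replicate block, GC trend removal by lowess (span 0.3) and leaving out each library; 3 more, which leave out DMSO 1 with dTAG47 1, leave out NOP2, PPAN and PWP2, or sum PWP2 with its copy, were chosen after seeing the data. The fit was run on counts simulated from its own estimates of spread, without a GC trend. That run does not test the fit under the GC tilt of these libraries. Reads carry no molecular identifiers.

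Values in every library are given for the 3 highest and 3 lowest members per comparison and in DMSO RPKM, and for FBL, NCL, NPM1, DKC1 and POLR1A; of the other lists, the largest value per comparison. Other members shown were chosen after their values were seen. The members and lists were chosen with earlier results of these data known. Libraries of a group differed beyond sampling noise (chi-square per degree of freedom 6.06 to 16.1).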

Additional observations from a re-analysis of the deposited data

How the results depend on the processing

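In every setting tried 0 of the 42 genes passed the threshold in each comparison, and the count of positive values stayed within 1.5 times. Leaving out 1 library moved it from 19 to 27 (dTAG47), 29 to 35 (AGB1) and 9 to 14 (dTAG47 minus AGB1), and the median from -0.0100 (without DMSO 3) to 0.0184, 0.0351 (without AGB1 1) to 0.0641, and -0.0468 (without dTAG47 3) to -0.0258. The sign of the dTAG47 median thus rests on DMSO 3 and dTAG47 2 (-0.00635 without the latter). Calls over all genes then ranged from 2 (without dTAG47 1) to 20 (without DMSO 3), from 6 (without AGB1 3) to 55 (without DMSO 3), and from 0 to 2. Of 18319 genes, dTAG47 calls numbered 47 by DESeq2, 43 with no count filter, 4 with only the 2 groups, 22 with the GC trend removed and 6 without DMSO 1 and dTAG47 1. AGB1 calls numbered 81, 67, 47 with the GC trend removed, 48 with that and the replicate block, and 29 without DMSO 1 and dTAG47 1. For dTAG47 minus AGB1 they were 13 with no filter and 2 without DMSO 1 and dTAG47 1. The cause of these moves was not tested.

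Without DMSO 1 and dTAG47 1 the dTAG47 median was 0.000473 and that of dTAG47 minus AGB1 -0.0449; with the GC trend removed the latter was -0.0507, and -0.0510 with the replicate block too. Without the same 2 libraries the sign turned for PPAN (-0.21), FBL (-0.0311), NCL (0.00737) and DKC1 (0.0300) with dTAG47, for DDX10 (0.0258) and FBL (-0.00294) with AGB1, and for PPAN (-0.15) in dTAG47 minus AGB1, where library sizes alone gave FBL 0.00135 and POLR1A 0.00136. Leaving out 1 library turned the dTAG47 sign of PPAN (-0.12 to 0.38), DKC1 (-0.0540 to 0.0250), FBL (-0.00987 to 0.0692) and NPM1 (-0.0543 to 0.00659), the AGB1 sign of DDX10 (-0.0946 to 0.0275) and FBL (-0.00131 to 0.0768), and that of PPAN (-0.15 to 0.31), FBL (-0.0293 to 0.0263) and POLR1A (-0.0380 to 0.0181) in dTAG47 minus AGB1. None of these values had passed the test. Replicate numbers are shared by the groups, but same-numbered libraries did not deviate together (correlation -0.156 to 0.0714 over 9 pairs, against -0.251 to 0.264 over 18 others), so the numbers were not taken as pairs. With the replicate block the members' counts of positive values were 24, 32 and 11, and their medians 0.0160, 0.0515 and -0.0293.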
